A study of Rattus norvegicus with 30 samples.

Results

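The genes of heme breakdown and iron handling were followed in primary hippocampal neurons of the rat. The neurons were given 1 of 3 drugs: DMF (dimethyl fumarate), MMF (monomethyl fumarate) or CBD (cannabidiol). These genes were chosen by symbol and not by a measured value, and are 10 of the 21993 genes that the tables list. The members are the heme oxygenases Hmox1 and Hmox2, the biliverdin reductases Blvra and Blvrb, the ferritin chains Ftl1 and Fth1, the iron exporter Slc40a1, the uptake genes Tfrc and Slc11a2, and the regulator Ireb2. The neurons came from wild-type Wistar rats at embryonic day 18, were grown for 7 days, and received DMF or MMF at 30 µM in DMSO, CBD at 6 µM in ethanol (EtOH), or the vehicle alone at 0.2%. Poly(A) RNA was sequenced after 4 and 24 h, with 3 libraries numbered 1 to 3 in each of the 10 groups, 30 libraries in all. DMF and MMF are the dimethyl and the monomethyl ester of fumaric acid, and CBD is a non-intoxicating cannabinoid of the hemp plant. The labels do not say whether replicates of a group were separate cultures, so that p-values measure the spread between these libraries, which may be partly technical.

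Heme oxygenase opens the heme ring and releases biliverdin, carbon monoxide and ferrous iron. Biliverdin reductase then turns biliverdin into bilirubin, and the freed iron is taken into ferritin, a shell of light and heavy chains, or leaves the cell through ferroportin. HMOX1 is the inducible form of the enzyme and a textbook target of NRF2, the factor freed by electrophiles such as DMF, whereas HMOX2 is the form that neurons express constitutively. Iron uptake through the transferrin receptor and the storage of iron in ferritin are also set after transcription by the iron regulatory proteins, to which the product of Ireb2 belongs, and messenger RNA levels do not show that layer.

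Reads on genes ranged from 15108132 to 25367834 per library, with a median of 20088658. Levels are given as CPM, the reads of a gene per 1e+06 reads of its library, scaled over all 30 libraries by the TMM method. They are compared between groups within a gene only, because transcript lengths were not used. Fold changes (log2FC) and p-values come from limma on the normalized counts of each pair of groups, with the p adjusted over every gene tested (Benjamini-Hochberg), and a gene is called when the adjusted p is under 0.05. Values after ± are standard errors for log2FC, and intervals are 95% confidence intervals. Same-numbered libraries deviated together, and the adjusted p of the fit with the replicate number as a block is therefore given wherever it changes a call. The cultures held neurons and glia by their markers. Over the 30 libraries, the summed level of 10 neuron markers lay between 3544 and 5144 CPM, that of 8 astrocyte markers between 2157 and 5557 CPM, and that of 8 markers of the oligodendrocyte lineage between 476 and 1110 CPM. The 10 markers of microglia and macrophages summed to 3.03 to 21.3 CPM, with Cx3cr1, P2ry12, Itgam and Tmem119 below 1 CPM in every library. Astrocyte markers summed lowest in replicate 3 in all 10 groups.

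With DMF at 4 h, 1 of the 10 members was called, Hmox1, which rose, against 3.41% of all genes tested (1.87% called as higher). At 24 h, 3 were called and all 3 rose (Hmox1, Ftl1 and Fth1), against 3.97% (1.88% as higher). With the replicate block these counts were 1 and 5, against 23% and 12.9% of all genes, and the 5 (4 higher and 1 lower, beside 5.81% and 7.1% of all genes) added Blvrb as higher and Slc11a2 as lower. With MMF, 0 members were called by limma at 4 h, against 0% of all genes, and 0 at 24 h, against 0.00707%. With CBD, 0 were called at 4 h, against 0.00705%, and 0 at 24 h, against 0.114%. At an unadjusted p under 0.05 the corresponding counts of members were 1 and 1 for MMF and 2 and 4 for CBD. Over all genes they were 36 of 14032 and 626 of 14137 for MMF, and 563 of 14193 and 1384 of 14079 for CBD. The quasi-likelihood test of edgeR called 0 in these 4 comparisons, and DESeq2 called 0 and 1 for MMF and 1 and 1 for CBD, Hmox1 in each case. Over all genes edgeR called 0 and 1 for MMF and 1 and 12 for CBD, and DESeq2 called 0 and 8 for MMF and 18 and 170 for CBD. The block called 0 and 1 with MMF (0% and 1.38% of all genes) and 2 and 0 with CBD (2.33% and 0.504%). Between DMSO and EtOH, limma called 0 members at 4 h and 0 at 24 h, against 0% of all genes at both times. At an unadjusted p under 0.05 there were 0 and 0 members, against 534 of 14088 and 626 of 13989 genes. DESeq2 and edgeR called 0 members, where DESeq2 called 14 and 5 genes in all and edgeR 0. The medians of the members' log2FC, 0.08 and 0.18 with DMF at 4 and 24 h, -0.02 and 0.03 with MMF and -0.01 and 0.03 with CBD, stood beside medians of all genes between -0.01 and 0.00.

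**Figure D1:**
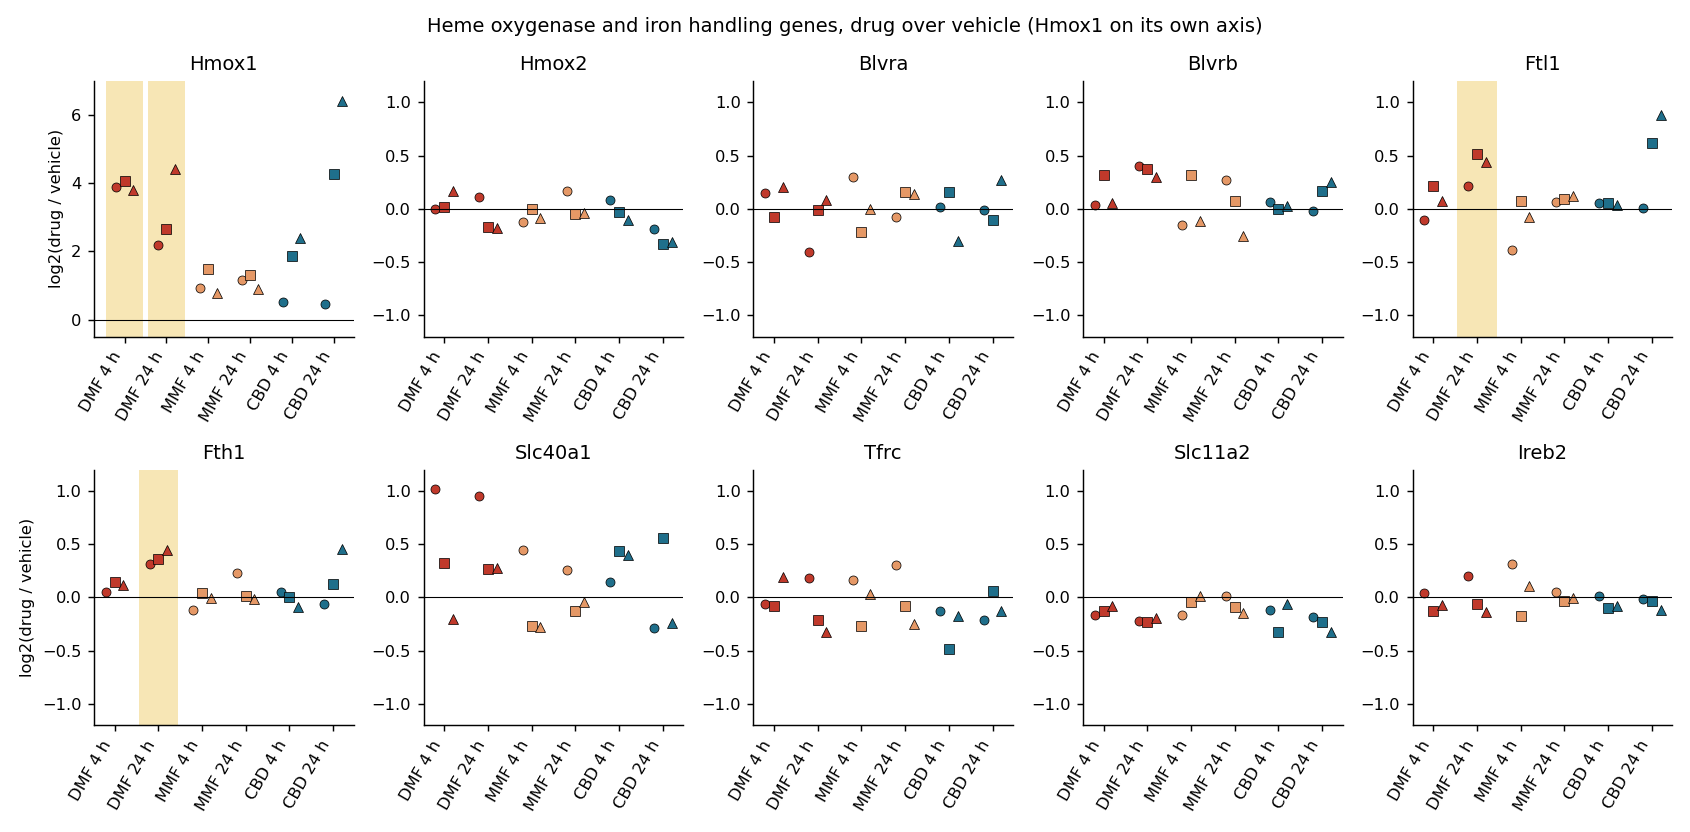
Log2 of the normalized count of each drug library over its same-numbered vehicle library, for the 10 members in 6 comparisons (circles, squares and triangles are replicates 1, 2 and 3, red is DMF, orange MMF and blue CBD). Hmox1 has its own axis and lies above 0 in all 18 pairs, and shading marks the comparisons called by limma, which are Hmox1 with DMF at both times and Ftl1 and Fth1 with DMF at 24 h.

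Hmox1 (ENSRNOG00000014117, chr19:13467244-13474079 on mRatBN7.2) was the member that moved most. Its level was higher in the drug library than in the vehicle library of the same number in 18 of 18 pairs, with log2 ratios from 0.44 to 6.42. No other member was higher, or lower, in all 18. Pairs of DMF and MMF share their DMSO libraries, so that the 18 are not independent. The 12 vehicle libraries lay between 8.49 and 22.7 CPM, and each had at least 129 reads. Replicate 3 was the lowest vehicle library in 4 of 4 vehicle groups, with 22.7, 19.1 and 10.4 CPM in DMSO at 4 h and 17.3, 14.4 and 10.8 CPM in EtOH at 24 h for replicates 1, 2 and 3. Replicate 3 also had the lowest sum of astrocyte markers in these groups. Among the 6 drug groups, replicate 3 was lowest for astrocyte markers in 6 and for Hmox1 in 3. In replicate order, microglia and macrophage markers summed to 21.3, 6.74 and 6.85 CPM in DMSO at 4 h. At 24 h they summed to 3.82, 4.23 and 3.37 CPM. In EtOH the sums were 14.4, 8.61 and 3.35 CPM at 4 h and 7.58, 6.11 and 3.49 CPM at 24 h. The part of glial content in the vehicle level of Hmox1 was not tested.

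**Figure D2:**
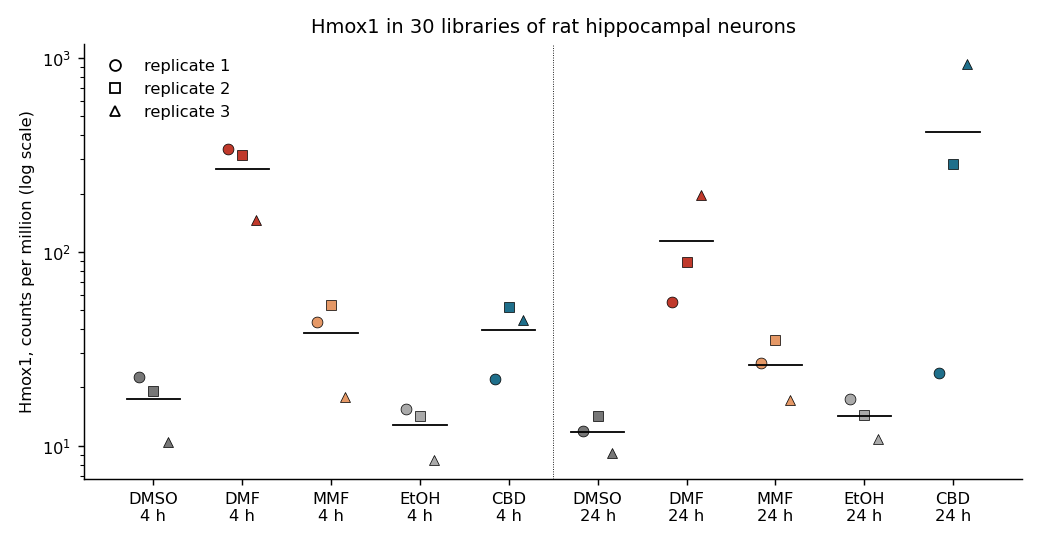
Level of Hmox1 in CPM on a log axis, by group (circles, squares and triangles are replicates 1, 2 and 3, and lines are group means). DMF libraries at 4 h sit between 146 and 338 CPM, above all vehicle libraries, whereas the CBD libraries at 24 h spread from 23.6 to 934 CPM.

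In order of their means, Hmox1 was lowest in DMSO at 24 h (11.8 ± 2.53 CPM, SD, n = 3), followed by EtOH at 4 h (12.7 ± 3.73), EtOH at 24 h (14.2 ± 3.27) and DMSO at 4 h (17.4 ± 6.30). Next came MMF at 24 h (26.2 ± 8.88 CPM), MMF at 4 h (38.1 ± 18.2) and CBD at 4 h (39.5 ± 15.5), and then DMF at 24 h (113 ± 73.8), DMF at 4 h (267 ± 105) and CBD at 24 h (414 ± 469). Neighbours in this order overlapped in their libraries at every step but 1, that from CBD at 4 h to DMF at 24 h. No difference of Hmox1 between the vehicles was called by limma, with a log2FC of DMSO over EtOH of 0.43 ± 0.31 at 4 h (SE, adjusted p = 1) and -0.26 ± 0.20 at 24 h (adjusted p = 0.97), and intervals of -0.28 to 1.13 and -0.71 to 0.18. Groups of the 2 vehicles that did not overlap made up 5.14% (DMSO higher) and 4.25% (lower) of all genes at 4 h, and 5.25% and 4.61% at 24 h.

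With DMF at 4 h, Hmox1 stood at 338, 318 and 146 CPM, against 22.7, 19.1 and 10.4 CPM in DMSO. All 3 DMF libraries were higher than all 3 vehicle libraries, as for 13% of all genes, and replicate 3 was low in both groups. The ratios within replicate numbers were close, with log2 values of 3.90, 4.05 and 3.80. The log2FC was 3.92 ± 0.36 (SE, n = 3 per group, adjusted p = 0.0047), a 15.4-fold ratio of the mean normalized counts, and the gene ranked 7th of 14208 by p. With the block it ranked 1st (adjusted p = 8.9e-16). In the same comparison 2 of 10 neuron markers fell (Neurod1 and Tubb3) and 0 of 8 astrocyte markers were called, where limma called 220 of 14208 genes as lower. The part of these markers in the level of Hmox1 was not tested.

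With DMF at 24 h, Hmox1 stood at 54.9, 89.1 and 196 CPM, against 11.9, 14.2 and 9.17 CPM in DMSO. The groups again did not overlap (11.3% of all genes lay as high without overlap), and replicate 3 now had the highest DMF level over the lowest vehicle level. The log2 ratios of 2.20, 2.65 and 4.41 spread more widely than at 4 h. The log2FC was 3.09 ± 0.38 (adjusted p = 0.0035), a 9.66-fold ratio of the mean normalized counts. The calls at both times remained in each of the 6 fits that left out 1 library, with adjusted p from 0.0022 to 0.041 at 4 h and 0.00028 to 0.028 at 24 h. The effect at 24 h minus that at 4 h was -0.83 ± 0.61 (adjusted p = 0.51, interval -2.15 to 0.49), so that a change of the response between the times was not resolved. Of all genes, 4.12% were called for this difference, and 13.2% with the block.

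MMF libraries held 43.4, 53.1 and 17.9 CPM of Hmox1 at 4 h and 26.6, 34.9 and 17.2 CPM at 24 h, against 22.7, 19.1 and 10.4 CPM in DMSO at 4 h and 11.9, 14.2 and 9.17 CPM at 24 h. At 4 h the groups overlapped through replicate 3, while at 24 h all MMF libraries were higher, as for 4.62% of all genes. Within replicate numbers, all 6 MMF libraries were above their vehicle, with log2 ratios of 0.93, 1.47 and 0.78 at 4 h and 1.15, 1.30 and 0.90 at 24 h. The log2FC was 1.06 ± 0.41 at 4 h (adjusted p = 1) and 1.11 ± 0.25 at 24 h (adjusted p = 0.95). Neither passed limma's threshold, and with the block the value at 24 h did (adjusted p = 4.6e-06) while that at 4 h did not (0.12). DESeq2 also called it at 24 h (adjusted p = 0.00032). The limma fit without MMF replicate 3 called it as well, and the adjusted p over the 6 fits that left out 1 library ran from 0.044 to 1.

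DMF and MMF were given at the same dose and times, and Hmox1 was higher with DMF at both. The 2 esters differed by 2.86 ± 0.43 in log2FC at 4 h (adjusted p = 0.03, interval 1.86 to 3.86), where 1 of 10 members was called against 1.61% of all genes. At 24 h they differed by 1.97 ± 0.42 (adjusted p = 0.041, interval 1.02 to 2.93), again as the only member called, against 3.56%. All DMF libraries were above all MMF libraries at each time (12.3% and 11.6% of all genes were as high), and the log2 ratios of the same-numbered libraries were 2.97, 2.58 and 3.02 at 4 h and 1.04, 1.36 and 3.51 at 24 h. Each call was lost in 4 of the 6 fits that left out 1 library: at 4 h without replicate 1 or 2 of either group, and at 24 h without DMF replicate 2 or any MMF replicate. The highest adjusted p in these fits was 0.14 at 4 h and 0.15 at 24 h. With the block both held (adjusted p = 1.3e-14 and 0.0056).

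The libraries with CBD at 24 h spread Hmox1 over the widest range of all groups. At 4 h the CBD libraries held 22.1, 51.8 and 44.6 CPM, against 15.5, 14.2 and 8.49 CPM in EtOH, and at 24 h they held 23.6, 283 and 934 CPM, against 17.3, 14.4 and 10.8 CPM. Every CBD library was above every EtOH library at both times (4.7% and 7.35% of all genes lay as high without overlap), and replicate 1 stood least above its vehicle. The log2 ratios were 0.52, 1.87 and 2.38 at 4 h and 0.44, 4.29 and 6.42 at 24 h, with replicate 1 lowest and replicate 3 highest at both times.

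The log2FC for CBD was 1.59 ± 0.34 at 4 h (adjusted p = 1) and 3.72 ± 1.10 at 24 h (adjusted p = 0.38), and neither was called by limma. The 4 h value passed with the block (adjusted p = 0.00012) and in DESeq2 (0.00015). The 24 h value did not pass with the block (adjusted p = 0.12) but did in DESeq2 (adjusted p = 0.0084, log2FC 4.86). It also passed in limma without CBD replicate 1, with a log2FC of 5.20 and an adjusted p of 0.0084. Over the 6 fits that left out 1 library, the log2FC ran from 2.55 (without CBD replicate 3) to 5.20 and the adjusted p up to 0.77, so that single libraries decided both the call and the size. The 5 genes most like Hmox1, which are named further on, had log2 ratios from -0.15 to 0.17 in replicate 1 at 24 h and from 0.43 to 2.95 in replicates 2 and 3. They were chosen by their likeness to Hmox1 over pairs that include these, so this order follows from the choice and is no separate result. A pair of metal-related genes, picked after their values were seen, was high in replicate 1 as well. Mt1, a metal-binding metallothionein, had normalized counts of 2285, 4102 and 3533 with CBD and 242, 266 and 122 with EtOH at 24 h, and Slc30a1, a zinc exporter, had 1046, 1037 and 1323 and 571, 572 and 576. Both were high in all 3 CBD libraries, and both were called (log2FC 4.01 ± 0.31, adjusted p = 0.01, and 0.98 ± 0.11, adjusted p = 0.028). The ratio of Mt1 to its same-numbered vehicle was lowest in replicate 1 and highest in replicate 3, the order of Hmox1. That of Slc30a1 was also highest in replicate 3. In the same libraries the neuron markers summed to 4275, 4003 and 4019.5 CPM with CBD and 4386, 4478 and 5144 CPM with EtOH, with Gad1 and Gad2 called as lower among 10 markers. Of all 14079 genes tested, limma called 10 as lower. The astrocyte markers summed to 4863, 4292 and 2157 and 4677, 4921 and 2998 CPM with 0 of 8 called. Their part in the level of Hmox1 was not tested.

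The doses and vehicles of CBD and DMF differed, at 6 µM in EtOH and 30 µM in DMSO. Side by side, the log2FC of Hmox1 was 1.59 with CBD and 3.92 with DMF at 4 h, and 3.72 and 3.09 at 24 h. The CBD effect minus the DMF effect was -2.33 ± 0.57 at 4 h (adjusted p = 0.074, with the block 0.0021) and 0.63 ± 1.34 at 24 h (adjusted p = 0.94). The 24 h value ran from -0.54 (without CBD replicate 3) to 2.11 when 1 library was left out, so that its direction turned with 1 library. At 4 h Hmox1 was the only member called for this difference with the block, against 10.4% of all genes (0.999% without it). With CBD, the effect at 24 h minus that at 4 h was 2.13 ± 1.35 (adjusted p = 1, interval -0.80 to 5.06), and 0% of all genes were called for it, or 0.0552% with the block.

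Hmox2 (ENSRNOG00000003773, chr10:10797055-10831148), the constitutive heme oxygenase, stayed between 30.8 and 46.2 CPM in all 30 libraries. With DMF its levels were 41.4, 39.1 and 46.2 CPM at 4 h and 37.2, 36.3 and 38.6 CPM at 24 h, against 41.5, 38.8 and 40.9 CPM in DMSO at 4 h and 34.3, 41.1 and 43.7 CPM at 24 h. These groups overlapped at both times, with log2FC of 0.06 ± 0.09 (interval -0.14 to 0.26) and -0.08 ± 0.10 (interval -0.30 to 0.14). The lowest library was 1 of those with CBD at 24 h, where Hmox2 stood at 36.6, 30.8 and 33.1 CPM against 41.6, 38.7 and 41.0 CPM in EtOH. All 3 CBD libraries lay below all 3 EtOH libraries there, as for 8.59% of all genes, and the difference of -0.28 ± 0.10 was not called (adjusted p = 0.44).

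Blvra (ENSRNOG00000011778, chr3:114340838-114366033) encodes biliverdin reductase A, the main biliverdin reductase of adult tissue. It had 144 to 340 reads per library, at which its log2FC lay between -0.11 and 0.09 in the 6 comparisons of a drug with its vehicle, and its groups overlapped in all 6. Within the 18 pairs it was higher in 9 and lower in 9. The widest of these 6 intervals, that of MMF at 4 h, ran over -0.42 to 0.47 in log2FC.

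Blvrb (ENSRNOG00000024410, chr1:82738695-82770375) encodes biliverdin reductase B, which also reduces flavins. With DMF at 24 h it stood at 37.6, 44.0 and 38.8 CPM, against 28.4, 34.3 and 31.6 CPM in DMSO. All DMF libraries were higher than all vehicle libraries, as for 11.3% of all genes. The log2 ratios of 0.40, 0.37 and 0.29 were alike in the 3 numbers. The log2FC of 0.36 ± 0.10 missed limma's threshold (adjusted p = 0.086) and passed it with the block (adjusted p = 0.0078) and in DESeq2 (adjusted p = 0.048). At 4 h its log2FC was 0.14 ± 0.11 and its groups overlapped. With the block it was also higher with DMF than with MMF at 24 h (log2FC 0.33 ± 0.09, adjusted p = 0.041), and not without the block (SE 0.13, adjusted p = 0.22). The model of Blvrb overlaps Sertad3, which had a median of 69 reads against 544 and a log2FC of -0.20 ± 0.24 with DMF at 24 h (adjusted p = 0.73).

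RefSeq promoter windows of 250 bases before to 50 bases after the start, on GRCr8, were listed for 7 of the 10 members, in 9 windows. Hmox1, Ftl1 and Fth1 were not among them. The core of the antioxidant response element, the letters to which NRF2 binds together with small MAF proteins, was searched as TGACNNNGC on both strands. The core was in 12.1% of all 33469 windows and in 2 of the 9 member windows, which were those of Blvra and of 1 of the 2 windows of Hmox2. The matching stretches are shown because they belong to members of the heme breakdown pathway that were not called in any comparison, with the match in capitals, written on the strand of the gene, where the core reads in reverse.
Blvra: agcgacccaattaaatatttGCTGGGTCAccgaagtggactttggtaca
Hmox2: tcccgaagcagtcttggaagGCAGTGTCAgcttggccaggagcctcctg
The stretch of Blvra lies at chr3:134802745-134802793 (plus strand), with the match 145 to 137 bases before the start, and that of Hmox2 at chr10:11337679-11337727 (minus strand), with the match 95 to 87 bases before it. These matches are letters in a window and were not measured as binding sites here. The window of Blvrb, whose level was higher with DMF at 24 h with the block, held no match to these letters.

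Ftl1, the ferritin light chain (ENSRNOG00000064385, chr1:95936387-95939725), and Fth1, the heavy chain with the ferroxidase site (ENSRNOG00000022619, chr1:206627103-206725424), rose with DMF at 24 h. Ftl1 stood at 346, 429 and 394 CPM with DMF and 298, 302 and 290.2 CPM with DMSO. Fth1 stood at 1046, 1158 and 1161 CPM and 836, 911 and 854 CPM. For both chains all 3 DMF libraries were above all 3 vehicle libraries, as 11.3% of all genes were. The log2FC was 0.39 ± 0.08 for Ftl1 (adjusted p = 0.035) and 0.37 ± 0.07 for Fth1 (adjusted p = 0.029), which are 1.32-fold and 1.30-fold ratios of the mean normalized counts. Both calls were lost without DMF replicate 2 and without any 1 of the 3 DMSO libraries, with adjusted p up to 0.15 for Ftl1 and 0.16 for Fth1, and both held with the block (adjusted p = 0.0031 and 0.0013).

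**Figure D3:**
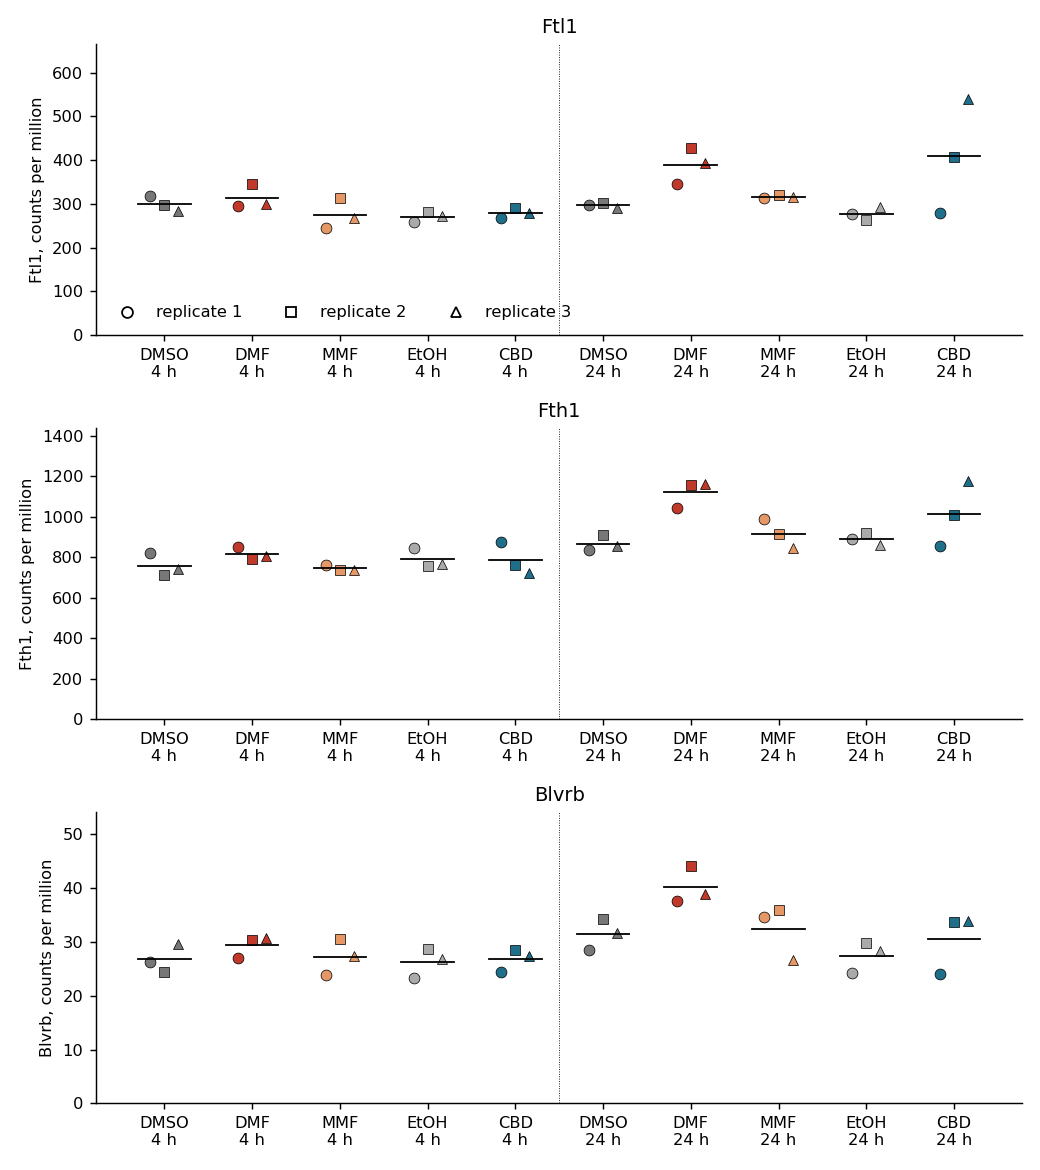
Levels of Ftl1, Fth1 and Blvrb in CPM on axes from 0, by group (circles, squares and triangles are replicates 1, 2 and 3, and lines are group means). At 24 h the DMF libraries lie above the DMSO libraries in all 3 genes, and the CBD libraries of Ftl1 spread from 279 to 540 CPM.

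At 4 h with DMF, when Hmox1 was at 146 to 338 CPM, the ferritins were near their vehicle. Ftl1 stood at 296, 346 and 299 CPM against 318, 298 and 284 CPM, and Fth1 at 853, 791 and 808 CPM against 822, 715 and 742 CPM. The groups overlapped for both, with log2FC of 0.06 ± 0.09 and 0.11 ± 0.09. The effect at 24 h minus that at 4 h was 0.33 ± 0.12 for Ftl1 (adjusted p = 0.16, with the block 0.042) and 0.26 ± 0.11 for Fth1 (adjusted p = 0.21, with the block 0.082). The difference between the times was thus called for Ftl1 with the block and not without it.

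With MMF at 24 h, Ftl1 was at 314, 320.3 and 316 CPM and Fth1 at 991, 915 and 847 CPM. The 3 Ftl1 values lay just above the DMSO values without overlap (4.62% of all genes were as high), and those of Fth1 overlapped them. The log2FC of 0.09 ± 0.05 and 0.08 ± 0.07 were not called (adjusted p = 0.95 and 0.96). The difference of DMF from MMF at 24 h was 0.30 ± 0.08 for Ftl1 and 0.29 ± 0.09 for Fth1, not called by limma (adjusted p = 0.11 and 0.12) and called with the block (0.013 and 0.027). At 4 h that of Ftl1 was 0.19 ± 0.11 (adjusted p = 0.44, with the block 0.012). With the block, 2 members were thus called between the esters at 4 h and 4 at 24 h, against 23.6% and 12.2% of all genes.

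With CBD at 24 h, Ftl1 stood at 279, 406 and 539.9 CPM against 278, 263 and 292 CPM, and Fth1 at 854, 1009 and 1176 CPM against 891, 923 and 859 CPM. Replicate 1 was within the range of the vehicle for Ftl1 and just below it for Fth1, replicate 2 was above it for both and replicate 3 was highest, the order also seen in Hmox1. The log2FC of 0.50 ± 0.21 and 0.17 ± 0.13 were not called (adjusted p = 0.49 and 0.69) and the groups overlapped through replicate 1. DMSO was above EtOH in Ftl1 at 4 h in all libraries (0.15 ± 0.07, adjusted p = 1). At 4 h, where the CBD libraries of Hmox1 reached 51.8 CPM, Ftl1 differed by 0.05 ± 0.06 and Fth1 by -0.01 ± 0.09.

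**Figure D4:**
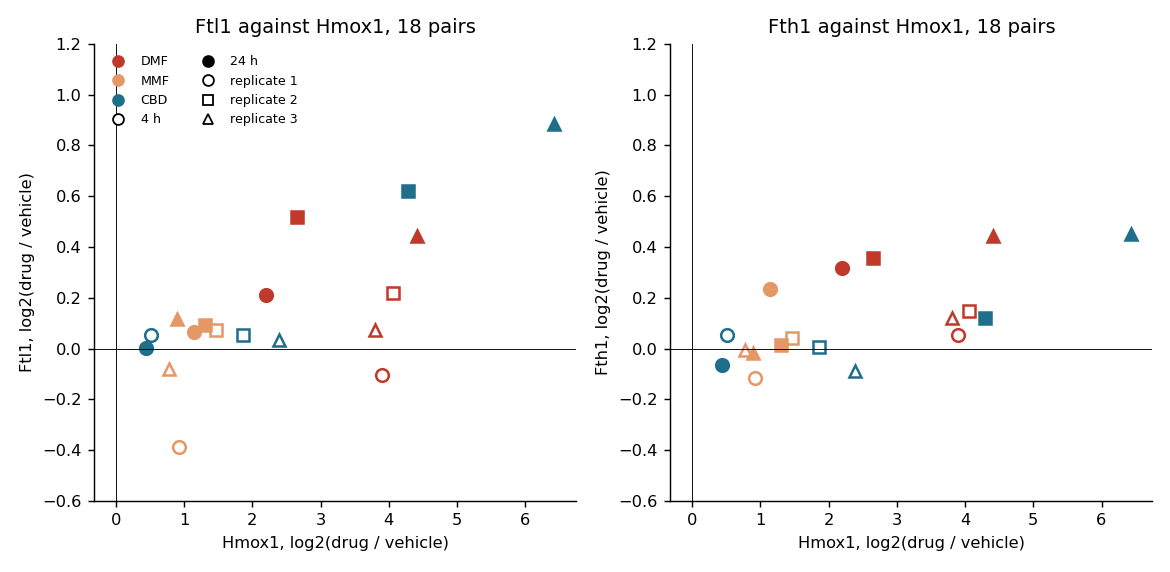
Log2 ratio of drug over vehicle for Ftl1 (left) and Fth1 (right) against that of Hmox1, in 18 pairs of libraries with the same replicate number (colours are drugs, open symbols are 4 h and filled symbols are 24 h). The pair with the highest ratio of Hmox1, CBD at 24 h in replicate 3, also has the highest ratio of Ftl1 (0.89) and of Fth1 (0.45), while the 3 DMF pairs at 4 h lie between -0.10 and 0.22 for Ftl1.

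Over the 18 pairs, the log2 ratios of Ftl1 and Hmox1 had a Pearson r of 0.718 and those of Fth1 and Hmox1 an r of 0.647, which fell to 0.488 and 0.383 without the 2 pairs farthest from the median of Hmox1 (replicate 3 of CBD and of DMF, both at 24 h). These values are descriptions, as pairs of DMF and MMF share their DMSO libraries. By this measure Ftl1 ranked 211 and Fth1 410 among the other genes.

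Markers of other cells moved with DMF at 24 h, where the ferritins rose. The 8 markers of dividing cells summed to 124, 102 and 118 CPM with DMF and 265, 245 and 253 CPM with DMSO, and 8 of 8 fell. The 10 neuron markers summed to 4067, 3703 and 4493 CPM with DMF and 4481, 4462 and 4853 CPM with DMSO, lower in each same-numbered pair, with 0 of 10 called by limma and 3 called as lower with the block (Nefl, Neurod1 and Tubb3). Of 7 markers of the oligodendrocyte lineage that were tested, 3 fell (Cspg4, Pdgfra and Sox10), with sums of 587, 732 and 742 and 895, 833 and 742 CPM. Of 8 astrocyte markers, 1 fell (Aldh1l1), while their sums were higher with DMF in each same-numbered pair, at 5042, 5557 and 3086 and 4059.5, 4895 and 2880.0 CPM. Of all 13967 genes tested, limma called 292 as lower, and with the block 7.1% were. In such bulk samples, fewer cells of a type and less RNA per cell cannot be told apart, and the part of these markers in the levels of the ferritins and of Hmox1 was not tested.

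The ferritin models share positions or sequence with other genes. The model of Fth1 spans 98322 bases and overlaps 5 others, of which Fads2 had the most reads, and Fads2 had a log2FC of 0.07 ± 0.11 with DMF at 24 h (adjusted p = 0.8). Ftl1 overlaps Bax, a regulator of cell death, which had a log2FC of 0.21 ± 0.09 (adjusted p = 0.27). The copy Fth1-ps5, with a median of 638 reads, rose like Fth1, by 0.36 ± 0.07 (adjusted p = 0.029). How the counting divided reads between such genes is not given in the sources used here, so the ferritin values carry that uncertainty. A further row under the symbol Ftl1, on chromosome 10, held 39 reads in all 30 libraries and did not pass the filter.

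Slc40a1 (ENSRNOG00000003872, chr9:48033526-48051481) encodes ferroportin, the iron exporter. It was counted with 30 to 104 reads per library, and 30 reads have an exact 95% Poisson interval of 20.2 to 42.8, which covers counting error only. With DMF at 24 h it stood at 4.16, 3.17 and 2.80 CPM, against 2.12, 2.65 and 2.29 CPM in DMSO. The groups did not overlap (11.3% of all genes lay as high without overlap), with replicate 1 the highest DMF library. The log2FC of 0.50 ± 0.21 was not called (adjusted p = 0.26, interval 0.02 to 0.98). In the other 5 comparisons with a vehicle its groups overlapped. The replicates of a group could lie far apart, as with DMF at 4 h, where Slc40a1 stood at 5.58, 2.94 and 2.22 CPM (104, 75 and 48 reads), against 2.72, 2.34 and 2.55 CPM in DMSO.

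Tfrc (ENSRNOG00000001766, chr11:68163413-68185257) encodes the transferrin receptor, through which cells take up transferrin-bound iron. With CBD at 4 h it stood at 202, 162 and 207 CPM, against 221, 228 and 233 CPM in EtOH. All CBD libraries were below all EtOH libraries, as for 5.25% of all genes. The log2FC of -0.26 ± 0.10 was not called by limma (adjusted p = 1) and was called with the block (adjusted p = 0.016). At 24 h with CBD its groups overlapped (-0.09 ± 0.09). With DMF its log2FC was 0.02 ± 0.14 at 4 h and -0.12 ± 0.14 at 24 h, with intervals of -0.29 to 0.33 and -0.43 to 0.19.

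Slc11a2 (ENSRNOG00000019550, chr7:131503081-131540145) encodes DMT1, which carries ferrous iron across membranes. It was lower in the drug library in 16 of 18 pairs, with log2 ratios from -0.32 to 0.01. These pairs are not independent, as those of DMF and MMF share their DMSO libraries. With DMF at 24 h it stood at 92.2, 90.2 and 91.5 CPM, against 107, 107 and 105 CPM in DMSO, and with CBD at 24 h at 103, 98.5 and 93.5 CPM, against 116, 115 and 117 CPM in EtOH. Both drug groups lay below their vehicle without overlap, as 11.5% and 8.59% of all genes did. The log2FC was -0.21 ± 0.06 with DMF (adjusted p = 0.077, with the block 0.024) and -0.25 ± 0.07 with CBD (adjusted p = 0.39, with the block 0.14). With DMF at 4 h the groups did not overlap either (13.3% of all genes lay as low), at -0.13 ± 0.07 (adjusted p = 0.34). DMSO was itself below EtOH at 24 h in all libraries (-0.13 ± 0.06, adjusted p = 0.97).

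Ireb2 (ENSRNOG00000013271, chr8:55228085-55311611) encodes iron regulatory protein 2, which binds the messages of ferritin and of the transferrin receptor when iron is low. It was not called in any comparison, and its groups overlapped in all 6 comparisons with a vehicle. With DMF at 24 h it stood at 120.4, 106 and 108 CPM, against 105, 111 and 118 CPM in DMSO. Its log2FC there was 0.00 ± 0.07, with an interval of -0.17 to 0.17.

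Genes of heme synthesis, heme transport, iron transport, iron storage and iron-sulfur clusters were tested in the same fits. Of 52 listed genes, 47 passed the filter whenever a drug was set against its vehicle. Of these, limma called 1 with DMF at 4 h, a smaller share than the 3.41% of all genes called there. It was Alas1, the first and rate-limiting enzyme of heme synthesis, and no other comparison of a drug with its vehicle called a listed gene. Alas1 had normalized counts of 438, 419 and 371 with DMF and 576, 590.4 and 614 with DMSO. All DMF libraries were lower, as for 13.3% of all genes. The log2FC was -0.54 ± 0.10 (adjusted p = 0.028, with the block 0.00044), and the call was lost in each of the 6 fits that left out 1 library. At 24 h its log2FC was -0.11 ± 0.10 (adjusted p = 0.63). The 8 genes of heme synthesis that were tested had a median log2FC of -0.22 with DMF at 4 h and 7 of 8 were below 0, beside a median of 0.00 over all genes.

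With the block, DMF at 4 h called 7 of these 47 genes, a smaller share than the 23% of all genes. Over all 14208 genes tested, 1637 were called as higher and 1637 as lower. Among the listed genes, 3 of heme synthesis were lower and 4 transporters or heme-binding genes were higher, each a smaller share of the 47 than over all genes. The lower ones were Alas1, Cpox at -0.40 ± 0.10 (adjusted p = 0.0076) and Fech, which inserts iron into protoporphyrin, at -0.29 ± 0.08 (adjusted p = 0.014). The higher ones were the heme exporter Flvcr1 at 0.36 ± 0.07 (adjusted p = 0.0016), the heme-binding Hebp1 at 0.24 ± 0.08 (adjusted p = 0.033), the mitochondrial iron importer Slc25a37 at 0.60 ± 0.17 (adjusted p = 0.019) and the second transferrin receptor Tfr2 at 0.56 ± 0.10 (adjusted p = 0.0014). At 24 h it called 2 of them as higher, against 5.81% of all genes, which were Abcb6, a porphyrin transporter, at 0.28 ± 0.06 (adjusted p = 0.017) and Cybrd1, a ferric reductase, at 1.05 ± 0.25 (adjusted p = 0.023). With MMF at 24 h it called Bmp6, which signals iron status to hepcidin, at 0.52 ± 0.12 (adjusted p = 0.037), against 1.38% of all genes. With CBD it called 0 at both times, against 2.33% of all genes at 4 h and 0.504% at 24 h.

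The 5 genes whose log2 ratios over the 18 pairs were most like those of Hmox1, among 13717 genes, were Rhbdd1 (Pearson r = 0.950), Sesn2 (r = 0.945), Aars1 (r = 0.931), Akna (r = 0.923) and Txnrd1 (r = 0.908). Rhbdd1 is a rhomboid protease of the endoplasmic reticulum, Sesn2 a stress-induced sestrin, Aars1 the cytosolic alanyl-tRNA synthetase, and Txnrd1 the cytosolic thioredoxin reductase, a known NRF2 target. Without the 2 farthest pairs the r of these genes lay between 0.831 and 0.924. Txnrd1, like Hmox1, was higher in 18 of 18 pairs, whereas Aars1 was higher in 11. With DMF at 4 h the log2FC of Txnrd1 was 0.68 ± 0.09 (adjusted p = 0.011) and that of Sesn2 was 1.50 ± 0.13 (adjusted p = 0.0047). With CBD at 24 h they were 0.59 ± 0.24 (adjusted p = 0.49) and 1.54 ± 0.62 (adjusted p = 0.49).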

How the data were processed

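Per the labels, the authors' tools were FastQC 0.12.1, cutadapt 4.4, Trimmomatic 0.39, the aligner HISAT2 2.2.1 (build mRatBN7.2) and the counter HTSeq 2.0.3. Strand and the handling of shared reads are not given in the sources used here. The deposited signal values are counts that the authors divided by DESeq2 1.40.2 size factors within each table of a pair of groups. Of 19 tables, 10 were used, and 9 that compare other pairs of groups were not. Other columns hold the authors' fold changes and p-values and were not used.

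Low values rose in equal steps of 1 read, and 100% of the values came out as whole reads (tolerance 0.01), and 0 of 567784 values differed between tables. The deposited unit was tested with limma 3.58.1 (R 4.3.3) on log2(value + 1), a scale that understates changes of low genes, with a mean trend, genes kept by filterByExpr of edgeR 4.0.16, and adjustment by Benjamini-Hochberg over all genes. Interactions used the reads of 12 libraries over median-ratio size factors. Alternatives were TMM scaling, DESeq2 1.42.0 and edgeR's quasi-likelihood test on the reads, no filter, a pseudocount of 0.1, the replicate block and leaving out each library. Simulated data were run through limma with and without the block, edgeR and DESeq2. This was done for DMF against DMSO at 4 h and for the CBD effect minus the DMF effect at 24 h. The other comparisons and alternatives were not simulated. Plots used Python 3.11.15, NumPy 2.4.6, pandas 2.3.3 and matplotlib 3.10.9.

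Replicate numbers come from the labels. Deviations from the group means correlated at 0.129 to 0.668 for libraries of the same number (30 values) and at -0.577 to 0.176 for others (60 values), so by the minimum of 0.1 the numbers pair the libraries. The members and lists were chosen with earlier results of these data known. Named are the 10 members, other listed heme and iron genes with an adjusted p under 0.05 in a comparison of a drug with its vehicle, with or without the block, and the 5 genes most like Hmox1. A result for 1 listed gene is not reported here. Mt1, Slc30a1 and genes that overlap or copy a member were named after their values were seen.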

Additional observations from a re-analysis of the deposited data

How the results depend on the processing

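Of 151 results for single genes under the alternatives, no called value changed sign. Of their 2112 values, 2069 kept their side of the threshold, 22 lost a call and 21 gained one, and 145 uncalled values changed sign. The replicate block changed the number of members called to 5 for DMF against DMSO at 24 h (3 without it), 1 for MMF against DMSO at 24 h (0), 2 for CBD against EtOH at 4 h (0), 2 and 4 for DMF against MMF at 4 and 24 h (1 and 1), 1 for the time difference of DMF (0) and 1 for the difference of CBD and DMF at 4 h (0), and changed no other count of members. DESeq2 gave 1 for MMF at 24 h, 1 for CBD at 4 h, 1 for CBD at 24 h, 3 for DMF against MMF at 24 h and 1 for the difference of CBD and DMF at 4 h. Leaving out 1 library gave 1 to 3 for DMF against DMSO at 24 h, 0 to 1 for MMF at 24 h and CBD at 24 h, 0 to 1 for DMF against MMF at 4 h and 0 to 2 at 24 h. A fit with 1 library fewer assumes that the remaining libraries vary like those of the other group. TMM scaling, edgeR's quasi-likelihood test, no filter and a pseudocount of 0.1 moved no count of members by over 1.5 times. Counts over all genes moved more, from 485 called with DMF at 4 h to 3274 with the block and 1024 in DESeq2, and from 554 at 24 h to 1803 and 852. With the block and in DESeq2 they moved from 1 to 195 and 8 for MMF at 24 h, from 1 to 330 and 18 for CBD at 4 h, from 16 to 71 and 170 for CBD at 24 h, from 229 to 3347 and 744 for DMF against MMF at 4 h, from 506 to 1740 and 829 at 24 h, and between the vehicles from 0 to 55 and 14 at 4 h and from 0 to 68 and 5 at 24 h. Leaving out 1 library gave 28 to 154 for DMF at 4 h, 141 to 1165 at 24 h, 0 to 14 for MMF at 24 h, 0 to 12 for CBD at 4 h, 0 to 116 for CBD at 24 h, 0 to 64 for DMF against MMF at 4 h and 156 to 711 at 24 h, and the shares of all genes called move with these counts. Slc40a1 had the fewest reads of the members, 30 to 104 per library. The cause of these differences between fits was not tested.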
